A study of Mus musculus with 51 samples.

Results

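The TNF ligand and receptor superfamily was followed across 4 blood-forming cell populations of the mouse. Its genes were taken by symbol, as every gene whose symbol starts with Tnfrsf or Tnfsf together with Tnf, Lta, Ltb, Ltbr, Fas, Fasl, Cd40, Cd40lg and Cd70, while Cd27 was left out. This gave 36 genes of the 18193 measured, 13 ligands, 22 receptors and Tnfsf13os, an antisense transcript at the Tnfsf13 locus that the symbol rule takes in. Tnfsf12 and Tnfsf13 were read by probe sets annotated to several genes and were not analysed here, nor were Tnfrsf26, Tnfsf15 and Tnfsf18.

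The cells were sorted by flow cytometry from whole bone marrow of Mll-AF9 knock-in mice and of wild-type mice, and total RNA was measured on oligonucleotide arrays after amplification. Mll-AF9 joins Mll, which encodes a histone methyltransferase, to Af9, as found in human leukaemia, and a knock-in expresses the fusion from the mouse's own Mll locus. Sorted populations were GMP (granulocyte and macrophage progenitors), CMP (the common progenitors of myeloid cells), CLP (those of lymphoid cells) and HSC (blood stem cells). Mll-AF9 GMP had 4 replicates and wild-type GMP 5, Mll-AF9 CMP 4 and wild-type CMP 5, Mll-AF9 CLP 7 and wild-type CLP 8, and each HSC group 5. Whether replicates are separate mice is not stated, nor are age, sex and zygosity. The study asked which genes the fusion changes within a population.

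Ligands of this superfamily are mostly trimeric membrane or secreted proteins, and their receptors signal either through cytoplasmic death domains or through TRAF adaptor proteins. Death domain receptors such as Fas and the TNF receptor encoded by Tnfrsf1a can start caspase-mediated death, and most members can activate the transcription factor NF-kappa B. In blood and lymphoid tissue the family is known for lymph node formation through lymphotoxin, for B cell survival through the receptors of BAFF, and for costimulation of T cells.

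Values are log2 RMA intensities, in which 1 unit is a doubling of signal. Levels of different genes are not compared, because probe sets differ in their response. A group mean under 4.61 was taken as below background, the 95th percentile of the mean levels of 115 genes for hair keratin-associated proteins and for odorant, pheromone and taste receptors. If 1 of the groups behind a call averages below that level, the fold is given as a lower bound, with the replicates of that group set no lower than background. Differences were tested with limma, and calls were made below an adjusted p of 0.05 (Benjamini-Hochberg, all 18193 genes).

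Several facts about the replicates bear on what follows. All 7 Mll-AF9 samples with a CLP title, and wild type replicate 1, 8 in all, carry CMP as their source name. Groups follow the titles. Klf1, an erythroid transcription factor, averaged 7.79 in Mll-AF9 CLP and 11.31 in Mll-AF9 CMP, and Il7r, the interleukin-7 receptor of lymphoid progenitors, 9.49 and 4.15. The deposited CMP values have more decimals. These arrays may therefore have been processed apart, and processing and population cannot be told apart there. Dntt, a lymphoid marker, stood at 10.93 in Mll-AF9 HSC and 11.59 in wild-type HSC, near its levels of 11.67 and 12.30 in Mll-AF9 and wild-type CLP. Mean levels of Y-linked genes were 2.21 to 2.72 in all Mll-AF9 replicates and spread from 2.39 to 7.33 in wild type, so sex overlaps genotype. Mll-AF9 CLP replicate 3 stands apart, with 60.3% of its genes above background. In sorted bulk RNA, fewer expressing cells and less RNA per cell cannot be told apart.

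Of the 36 genes, 10 were above background in all 8 groups, 10 in some groups and 16 in none. The 10 throughout were the ligands Tnf and Tnfsf10 and the receptors Tnfrsf1a, Tnfrsf1b, Tnfrsf4, Tnfrsf12a, Tnfrsf13b, Tnfrsf18, Tnfrsf21 and Ltbr. In all, 5 of 13 ligands and 14 of 22 receptors were above background in any group. The ligand Cd40lg, which activates the receptor CD40 on B cells, did so in GMP alone.

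**Figure D1:**
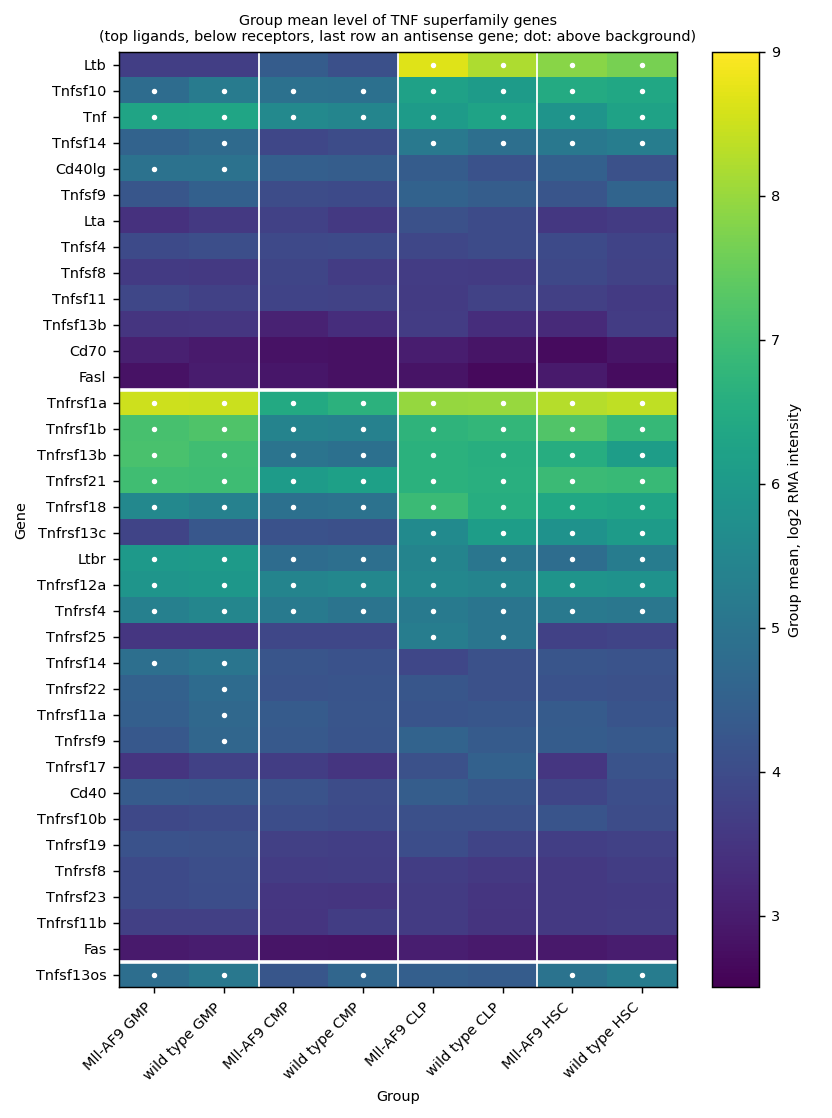
Group means of the 36 genes (rows) in the 8 groups (columns), as log2 RMA intensity by colour. White dots mark means above the background of 4.61. Ltb is bright in the 4 CLP and HSC groups and dark in the 4 GMP and CMP groups, while Tnfrsf1a is bright in every group and least so in CMP.

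Ltb, Tnf and Lta lie next to each other on chromosome 17, yet they were not read alike in these populations, and their promoters are shown for that reason, with that of Tnfrsf25, a receptor gene whose mean was above background in CLP alone. Each sequence is the 250 bases before a transcription start, from RefSeq on GRCm38.p6, 5′ to 3′ on the strand of the gene. For a gene with several RefSeq starts, the start with a kappa B match in these bases was taken. For such a gene the match was a condition of the choice, not a finding. Capitals mark a match to the kappa B consensus, the motif bound by NF-kappa B, searched on both strands, or to TATAAA, searched on the coding strand.
Ltb, chr17:35194257-35194506, plus strand: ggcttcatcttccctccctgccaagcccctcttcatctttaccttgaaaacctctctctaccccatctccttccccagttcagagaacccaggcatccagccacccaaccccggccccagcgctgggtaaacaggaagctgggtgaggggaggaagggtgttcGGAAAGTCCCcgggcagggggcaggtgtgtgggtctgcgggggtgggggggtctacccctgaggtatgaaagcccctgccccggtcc
Tnf, chr17:35202008-35202257, minus strand: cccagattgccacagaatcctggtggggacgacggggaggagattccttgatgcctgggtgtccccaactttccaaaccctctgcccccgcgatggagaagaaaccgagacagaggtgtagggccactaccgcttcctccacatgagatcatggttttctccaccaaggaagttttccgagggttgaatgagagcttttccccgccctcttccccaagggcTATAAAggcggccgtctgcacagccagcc
Lta, chr17:35205352-35205601, minus strand: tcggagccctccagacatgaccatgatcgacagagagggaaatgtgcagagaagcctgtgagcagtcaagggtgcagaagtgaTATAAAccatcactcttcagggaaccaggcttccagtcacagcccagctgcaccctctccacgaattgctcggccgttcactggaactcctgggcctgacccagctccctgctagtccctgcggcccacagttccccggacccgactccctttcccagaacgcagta
Tnfrsf25, chr4:152116093-152116342, plus strand: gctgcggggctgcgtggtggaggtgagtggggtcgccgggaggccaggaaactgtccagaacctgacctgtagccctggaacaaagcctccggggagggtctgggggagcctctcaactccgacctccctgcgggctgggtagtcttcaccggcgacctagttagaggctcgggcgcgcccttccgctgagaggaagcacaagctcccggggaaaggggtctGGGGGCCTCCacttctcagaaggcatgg

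The kappa B match of Ltb begins 87 bases before the start and that of Tnfrsf25 begins 28 bases before it. TATAAA begins 29 bases before the start of Tnf and 167 bases before that of Lta. In windows that run on to 50 bases after the start, RefSeq promoters were found for 27 of the 36 genes, in 31 windows. The kappa B consensus was in 4 of these 31 windows (12.9%), those of Ltb, Tnfrsf8, Tnfrsf9 and Tnfrsf25, against 8.46% of all 32851 windows of that length. TATAAA was in 3 of the 31 (9.68%), those of Tnf, Lta and Tnfrsf17, against 8.32%. GAGGAA, a core bound by the myeloid and lymphoid factor PU.1 and searched on both strands, was in 11 of the 31 (35.5%), against 28.3%. None of these matches overlapped another in the 4 sequences shown, and a match is a description of letters, not of binding.

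Ltb encodes lymphotoxin beta, the membrane partner of lymphotoxin alpha. In CLP its level ran from 7.45 over a median of 8.82 to 9.27 in Mll-AF9 and from 6.90 over 8.09 to 9.26 in wild type. In GMP it was 3.29, 3.79, 3.84 and 3.94 in Mll-AF9 and 3.51, 3.98, 3.40, 3.83 and 3.83 in wild type. Every CLP replicate lay above every GMP replicate, without overlap. HSC were close to CLP, with 7.85, 7.85, 8.05, 7.45 and 8.01 in Mll-AF9 and 8.50, 8.13, 6.96, 7.53 and 7.19 in wild type. CMP were close to GMP, with 4.48, 4.68, 4.20 and 4.18 in Mll-AF9 and 4.50, 4.35, 3.85, 3.90 and 3.86 in wild type. CLP exceeded GMP by 4.96 ± 0.32 (SE, adjusted p = 7.43e-16) in Mll-AF9, at least 16.7-fold, and by 4.49 ± 0.29 (adjusted p = 7.2e-16) in wild type, at least 11.999-fold.

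Markers of mature B and T cells, which also express Ltb, were read beside it. Cd79a averaged 4.10 and 4.35, Cd22 3.96 and 4.36, and Ms4a1 3.53 and 4.20 in Mll-AF9 and wild-type CLP, all below background. Cd79b stood at 6.77 and 6.76 there and at 7.24 and 7.23 in Mll-AF9 and wild-type GMP, where Ltb was below background. Summed levels of the 4 B cell markers measured were 6.88 to 7.77 in Mll-AF9 CLP and 7.05 to 7.86 in wild-type CLP. Of 6 mature T and NK cell markers, 4 were above background in Mll-AF9 CLP and 3 in wild-type CLP, among them Nkg7, at 8.77 and 8.27, and Klrd1, at 6.36 and 5.06. Their summed levels were 8.78 to 9.71 in Mll-AF9 CLP and 7.42 to 9.61 in wild-type CLP, against 10.42 to 10.90 in Mll-AF9 GMP and 10.48 to 10.91 in wild-type GMP. Klrd1 was below background in GMP of both genotypes, at 3.58 and 3.22, and Cd3d and Cd3g were below background in every group. The part of such cells in the level of Ltb was not tested.

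Tnf, the founding cytokine of the family, did not follow its neighbour. It stood between 5.32 and 7.14 in all 43 replicates, above background in each. Mll-AF9 GMP averaged 6.29 ± 0.31 (SD, n = 4) and wild-type GMP 6.32 ± 0.30 (SD, n = 5), while Mll-AF9 CMP averaged 5.55 ± 0.08 (SD, n = 4) and wild-type CMP 5.45 ± 0.09 (SD, n = 5). Wild-type HSC had 7.14, 6.64, 5.90, 6.02 and 5.52, the widest spread among the HSC and GMP groups. Tnf was lower in wild-type CMP than in wild-type HSC by 0.79 ± 0.22 (adjusted p = 0.0063), a call that was lost without wild type HSC replicate 1, and no other comparison of populations called it. Lta, which encodes lymphotoxin alpha, stayed below background in every group, with means between 3.43 and 4.12.

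**Figure D2:**
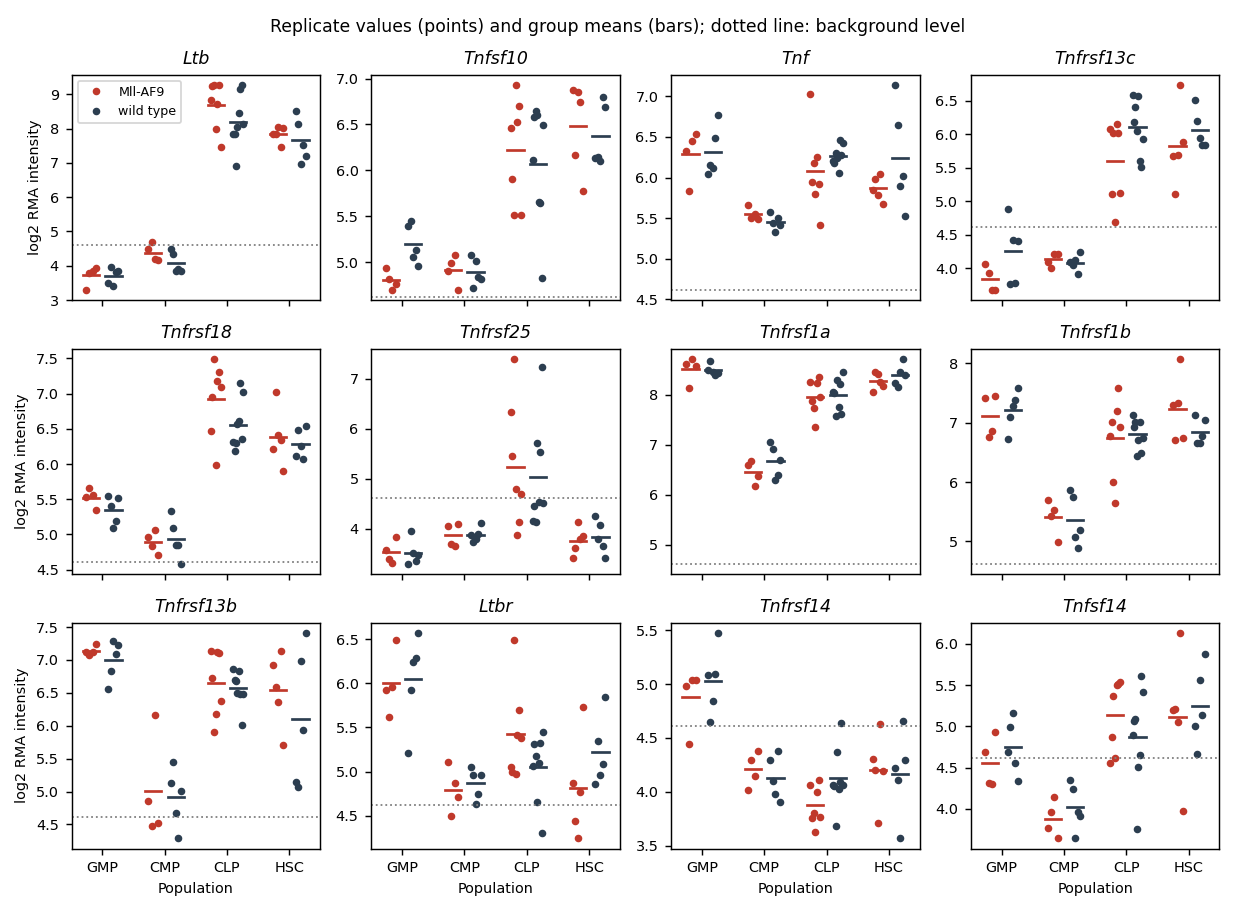
Replicate values (points) and group means (bars) of 12 genes, log2 RMA intensity on the vertical axis, with Mll-AF9 (red) left of wild type (dark) in each population. The dotted line is the background of 4.61. Ltb, Tnfrsf13c, Tnfsf10 and Tnfrsf18 lie higher in CLP and HSC than in GMP and CMP, Tnfrsf1a and Tnfrsf1b drop in CMP, and Tnfrsf25 spreads over more than 3 units within CLP.

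The first comparison of populations was GMP with HSC. In Mll-AF9 7 genes were higher and 4 lower in GMP, where 32.8% of all genes were called, 20.4% higher and 12.5% lower. In wild type 8 were higher and 4 lower, where 38.1% were called, 24.6% higher and 13.5% lower. The share of the 36 genes called was 30.6% in Mll-AF9 and 33.3% in wild type, near these backgrounds. Over all genes the median difference was 0.10 in Mll-AF9 and 0.14 in wild type, and over the 36 genes it was 0.06 and 0.11. The 2 genotypes shared 10 calls of the same direction, 90.9% of the Mll-AF9 calls and 83.3% of the wild-type calls. The share of calls common to both genotypes was not counted over all genes, so it is not read as a trait of the family. By role, 1 ligand was higher and 2 lower in each genotype, while 6 receptors were higher in Mll-AF9 and 7 in wild type, and 2 were lower in each.

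Ltb and 3 other genes were lower in GMP. Tnfrsf13c encodes the BAFF receptor of B cells. It read 4.07, 3.93, 3.68 and 3.69 in Mll-AF9 GMP and 5.67, 5.10, 5.70, 6.74 and 5.89 in Mll-AF9 HSC, without overlap, and its means were 4.25 in wild-type GMP and 6.07 in wild-type HSC. The difference was −1.98 ± 0.27 in Mll-AF9 (adjusted p = 2.32e-07, at least 2.30-fold) and −1.82 ± 0.26 in wild type (adjusted p = 3.48e-07, at least 2.64-fold). Tnfsf10 encodes TRAIL, a ligand that can kill cells through death receptors. It read 4.94, 4.82, 4.69 and 4.76 in Mll-AF9 GMP and 6.87, 6.17, 6.85, 6.74 and 5.78 in Mll-AF9 HSC. The groups did not overlap in either genotype, and the difference was −1.68 ± 0.29 in Mll-AF9 (adjusted p = 1.09e-05) and −1.18 ± 0.27 in wild type (adjusted p = 0.000563). A second Tnfsf10 probe set fell by 1.45 ± 0.29 in wild type (adjusted p = 9.9e-05 over all 34945 probe sets of single genes), but another differed by 0.37 ± 0.27 without a call. Tnfrsf18 encodes GITR, a costimulatory receptor of T cells, and fell by 0.85 ± 0.23 in Mll-AF9 (adjusted p = 0.00386) and by 0.94 ± 0.22 in wild type (adjusted p = 0.000707).

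The receptor of lymphotoxin showed the other direction. Ltbr read 5.92, 5.62, 5.96 and 6.50 in Mll-AF9 GMP against 4.88, 4.44, 4.24, 4.77 and 5.73 in Mll-AF9 HSC, and 5.22, 5.92, 6.24, 6.29 and 6.57 in wild-type GMP against 4.86, 5.35, 4.96, 5.08 and 5.84 in wild-type HSC. The groups overlap, through HSC replicate 5 of each genotype and wild type GMP replicate 1. The difference was 1.19 ± 0.28 (adjusted p = 0.000957) in Mll-AF9 and 0.83 ± 0.27 (adjusted p = 0.0119) in wild type. Ltb and its receptor thus had opposite signs in this comparison. Tnfrsf14, which encodes HVEM, a receptor for LIGHT and BTLA, was higher in GMP by 0.67 ± 0.19 (adjusted p = 0.0051, at least 1.20-fold) in Mll-AF9 and by 0.86 ± 0.18 (adjusted p = 0.000165, at least 1.32-fold) in wild type. Its means were 4.88 and 5.03 in Mll-AF9 and wild-type GMP and below background elsewhere. Cd40lg was higher by 0.45 ± 0.16 in Mll-AF9 (adjusted p = 0.0218, at least 1.22-fold, lost in 3 of 18 alternatives) and by 0.85 ± 0.15 in wild type (adjusted p = 1.11e-05, at least 1.27-fold).

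The adjacent genes Tnfrsf22 and Tnfrsf23 on chromosome 7, mouse receptors for TRAIL that lack a death domain, were both called higher in GMP. Tnfrsf22 differed by 0.68 ± 0.14 in wild type (adjusted p = 0.000184, at least 1.12-fold), where GMP averaged 4.78, just above background. In Mll-AF9 it differed by 0.39 ± 0.15 (adjusted p = 0.0415) with both groups below background, and that call was lost in 11 of 17 alternatives. Tnfrsf23 stayed below background, as did Tnfrsf8, which encodes CD30, and the Mll-AF9 call of Cd40. In Mll-AF9 the calls were lost in 6 of 17 alternatives for Tnfrsf23, 13 of 17 for Tnfrsf8 and 6 of 17 for Cd40, and in wild type in 2 of 18 for Tnfrsf23 and 3 of 18 for Tnfrsf8. Tnfrsf11a, the receptor RANK of osteoclast precursors, was higher by 0.50 ± 0.15 in wild-type GMP (adjusted p = 0.00646), at least 1.06-fold. Tnfrsf13b, which encodes TACI, another receptor for BAFF, was higher in wild-type GMP by 0.89 ± 0.33 (adjusted p = 0.0316). That call was lost without any 1 of 6 replicates, among them wild type HSC replicates 1 and 2, which had 5.14 and 5.08 where the other HSC replicates had 6.98, 5.93 and 7.41. The mean level of Y-linked genes was 6.91 and 6.97 in replicates 1 and 2, against 2.54 to 2.66 in the other 3, and Tnf was 7.14 and 6.64 against 5.52 to 6.02. In all, 7 of the 19 alternatives for the Tnfrsf13b call lost it, and a covariate of Y-linked levels was among the 19. The part of sex in these levels was not tested beyond that covariate. Wild type HSC replicate 5, at 7.41, also had the highest summed level of the GMP markers Mpo, Elane, Ctsg and Prtn3, 13.74. Its summed monocyte, macrophage and dendritic cell markers were highest too, at 11.07. The next highest sums, 12.45 and 9.65, were in replicate 2, which had the lowest Tnfrsf13b. The part of such cells in the level of Tnfrsf13b was not tested.

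Monocyte, macrophage and dendritic cell markers were higher in GMP in the same direction, with summed levels of 11.97 to 12.29 in Mll-AF9 GMP, 11.63 to 13.11 in wild-type GMP, 7.97 to 9.49 in Mll-AF9 HSC and 9.07 to 11.07 in wild-type HSC. Of the 8 markers measured, 6 were above background in each GMP group and 5 in each HSC group. The part of such cells in the levels of Ltbr or Tnfrsf14 was not tested.

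CMP were set against HSC next. No gene of the family was higher and 9 were lower in Mll-AF9 CMP, where 20.9% of all genes were called, 10.7% higher and 10.2% lower. In wild type 0 were higher and 11 were lower, where 22.4% were called, 11.7% higher and 10.7% lower. Over all genes the median difference was −0.01 in Mll-AF9 and 0.01 in wild type, while over the 36 genes it was −0.07 and −0.13. The 8 genes called in both genotypes were Ltb, Tnfsf10, Tnfsf14, Tnfrsf1a, Tnfrsf1b, Tnfrsf13b, Tnfrsf13c and Tnfrsf18. They were 88.9% of the Mll-AF9 calls and 72.7% of the wild-type calls, a share again not counted over all genes. These comparisons use the same HSC replicates as those of GMP, and they rest on CMP arrays that may have been processed apart. Of the 11 wild-type calls 2, Tnfrsf17 and Tnfsf9, had both groups below background, and they were lost in 12 of 20 and 4 of 20 alternatives. Erythroid markers, with 4 of 4 above background in each group, had summed levels of 13.17 to 13.38 in Mll-AF9 CMP and 13.23 to 13.44 in wild-type CMP, against 8.77 to 11.63 in Mll-AF9 HSC and 9.02 to 10.23 in wild-type HSC. The GMP markers Mpo, Elane, Ctsg and Prtn3 summed to 10.69 to 11.88 in Mll-AF9 CMP and 11.09 to 12.18 in wild-type CMP. They summed to 10.91 to 12.53 in Mll-AF9 HSC and 11.44 to 13.74 in wild-type HSC. In GMP they reached 14.91 to 15.09 in Mll-AF9 and 14.79 to 15.11 in wild type. The name CMP is that of the titles. Of 4 mature B cell markers measured, 1 was above background in Mll-AF9 CMP, 0 in wild-type CMP and 1 in either HSC group, and their summed levels were 6.06 to 6.33 in Mll-AF9 CMP and 5.86 to 6.13 in wild-type CMP, against 6.52 to 7.68 in Mll-AF9 HSC and 6.65 to 7.26 in wild-type HSC. The part of these cells in the lower levels was not tested.

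Both receptors of TNF were among them. Tnfrsf1a, the widely expressed death domain receptor, read 6.60, 6.68, 6.17 and 6.37 in Mll-AF9 CMP and 7.05, 6.93, 6.30, 6.39 and 6.70 in wild-type CMP. In HSC it read 8.05, 8.45, 8.42, 8.26 and 8.18 in Mll-AF9 and 8.22, 8.16, 8.46, 8.71 and 8.39 in wild type. Every CMP replicate lay below every replicate of the other 3 populations. The difference from HSC was −1.82 ± 0.20 in Mll-AF9 (adjusted p = 3.97e-09, 3.52-fold) and −1.72 ± 0.19 in wild type (adjusted p = 1.73e-09, 3.29-fold). Tnfrsf1b, the TNF receptor without a death domain, read 5.70, 5.43, 5.52 and 4.98 in Mll-AF9 CMP and 7.30, 6.70, 7.32, 8.07 and 6.74 in Mll-AF9 HSC. It fell by 1.82 ± 0.28 in Mll-AF9 (adjusted p = 4.56e-06) and by 1.50 ± 0.27 in wild type (adjusted p = 3.34e-05), but a second Tnfrsf1b probe set, at 4.77 in wild-type CMP and 4.61 in wild-type HSC, differed by 0.16 ± 0.16 without a call.

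Tnfrsf13b had 4.86, 4.47, 6.16 and 4.52 in Mll-AF9 CMP and 5.12, 5.45, 4.67, 4.29 and 5.01 in wild-type CMP. It fell by 1.54 ± 0.36 in Mll-AF9 (adjusted p = 0.00105) and by 1.20 ± 0.33 in wild type (adjusted p = 0.00624), and CMP overlapped HSC in both. Tnfsf14 encodes LIGHT, a ligand of HVEM and of the lymphotoxin receptor. It read 3.76, 3.96, 4.15 and 3.64 in Mll-AF9 CMP and 5.20, 5.21, 5.05, 6.13 and 3.97 in Mll-AF9 HSC, where replicate 5 lay among the CMP values. It was lower by at least 1.41-fold in Mll-AF9 (adjusted p = 0.00221) and at least 1.55-fold in wild type (adjusted p = 0.00113). Tnfrsf21, the death domain receptor DR6, fell by 0.88 ± 0.31 in Mll-AF9 (adjusted p = 0.0383), a call lost in 8 of 20 alternatives. In wild type it differed by −0.70 ± 0.30 without a call (adjusted p = 0.0861), and the genotypes were not shown to differ (difference of effect −0.18 ± 0.43, not called).

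The third comparison was CLP with HSC. In Mll-AF9 3 genes, Tnfrsf25, Lta and Cd40, were higher and none lower, where 3.73% of all genes were called, 2.69% higher and 1.04% lower. In wild type limma called 0 of the 36 genes and 0.319% of all genes, 0.264% higher and 0.0550% lower. At an unadjusted p under 0.05 it gave 4 of the 36 and 9.58% of all genes. Lta and Cd40 lay below background in both groups, and their calls were lost in 10 of 20 and 11 of 20 alternatives. Tnfrsf25, the death domain receptor DR3 of lymphocytes, differed by 1.48 ± 0.40 in Mll-AF9 (adjusted p = 0.0251), at least 1.55-fold. In wild type it differed by 1.20 without a call, with means of 5.04 in CLP and 3.84 in HSC. The genotypes were not shown to differ in this, as the difference of effect was not called. The Mll-AF9 call was lost in 7 of 21 alternatives, among them the RNA quality covariate and a fit of only these 2 groups. Under these 2 settings 307 and 59 of all genes were called in place of 679. The difference between 3′ and 5′ control probe sets was 4.87, 4.32 and 4.93 in Mll-AF9 CLP replicates 1, 3 and 4, which had Tnfrsf25 levels of 6.35, 7.40 and 4.81. It was 3.68 to 3.89 in the other 4 and 3.16 to 4.27 in Mll-AF9 HSC, and its part in the call was not tested beyond that covariate. The number of calls was 0 without Mll-AF9 CLP replicate 1 or 3 or HSC replicate 2 or 4, and 1 without HSC replicate 1 or 3.

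CLP were last set against GMP, with 6 genes higher and 3 lower in Mll-AF9, where 30.1% of all genes were called, 12.7% higher and 17.5% lower. In wild type 7 were higher and 10 lower, where 43.0% were called, 14.7% higher and 28.3% lower. The median difference over all genes was −0.06 in Mll-AF9 and −0.15 in wild type, and over the 36 genes it was −0.09 and −0.21. All 9 Mll-AF9 calls were shared in direction with wild type, and they were 52.9% of the wild-type calls. Here too the share was not counted over all genes. Ltb, Tnfrsf13c, Tnfrsf18, Tnfsf10, Tnfrsf25 and Lta were higher and Tnfrsf14, Cd40lg and Tnfrsf1a lower in both. The Mll-AF9 call of Tnfrsf1a was lost in 6 of 20 alternatives and the wild-type call of Lta in 8 of 21. The GMP replicates are those already set against HSC.

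Tnfrsf13c exceeded GMP by 1.76 ± 0.26 in Mll-AF9 CLP (adjusted p = 7.38e-07, at least 1.98-fold) and by 1.85 ± 0.23 in wild-type CLP (adjusted p = 2.21e-08, at least 2.71-fold). Tnfrsf18 ran from 5.99 over a median of 7.10 to 7.49 in Mll-AF9 CLP and read 5.53, 5.67, 5.56 and 5.34 in Mll-AF9 GMP. The groups did not overlap, also in wild type, and the difference was 1.40 ± 0.22 in Mll-AF9 (adjusted p = 2.34e-06) and 1.21 ± 0.20 in wild type (adjusted p = 3.91e-06). Its neighbour Tnfrsf4, which encodes the T cell receptor OX40, was above background throughout, at 5.00 to 5.49, and was called in none of the comparisons. Tnfsf10 was higher by 1.42 ± 0.27 (adjusted p = 5.97e-05) and 0.87 ± 0.24 (adjusted p = 0.00345), and wild type CLP replicate 7, at 4.83, lay below all wild-type GMP replicates.

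Of the lower genes, Tnfrsf14 fell by 1.00 ± 0.18 in Mll-AF9 (adjusted p = 2.18e-05, at least 1.20-fold) and by 0.90 ± 0.16 in wild type (adjusted p = 1.52e-05, at least 1.33-fold). Ltbr fell in wild type by 1.00 ± 0.24 (adjusted p = 0.000779) and was not called in Mll-AF9, where CLP ran from 4.98 over 5.38 to 6.50. Tnfrsf12a, the receptor Fn14 of the ligand TWEAK, fell by 0.51 ± 0.19 in wild type (adjusted p = 0.029). Its second probe set fell by 0.73 ± 0.21 (adjusted p = 0.0058 over all 34945 probe sets of single genes). Tnfrsf22, Tnfrsf23, Tnfrsf8, Tnfrsf11a and Tnfsf13os were also lower in wild-type CLP, by 0.46 to 0.71. Tnfrsf17, which encodes the plasma cell receptor BCMA, was called higher in wild-type CLP (0.76 ± 0.23, adjusted p = 0.00571) with both groups below background. Among the wild-type calls 4 of 17 had both groups below background.

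**Figure D3:**
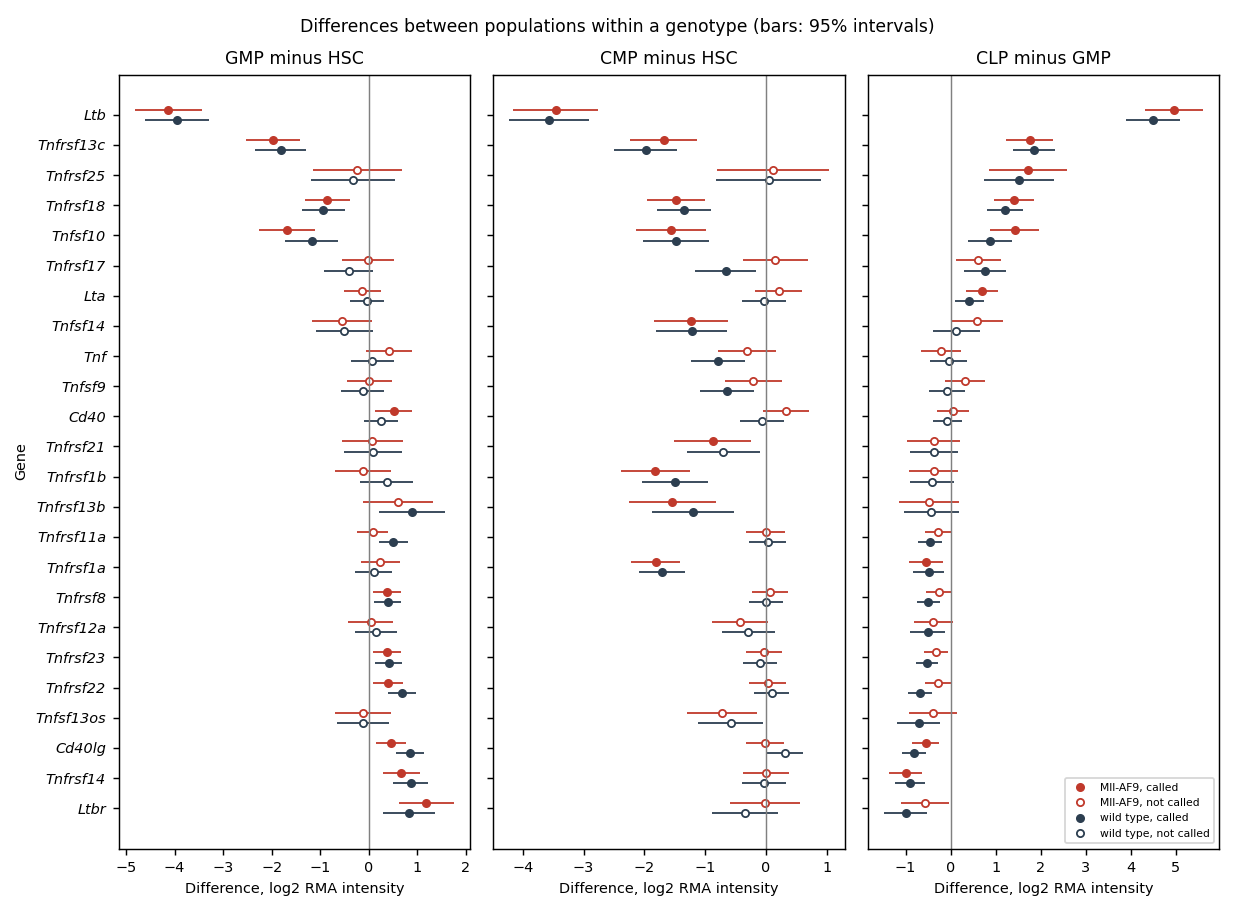
Differences between populations (horizontal axis, log2 RMA intensity, with 95% intervals) of the 24 genes called in at least 1 of the comparisons shown, with Mll-AF9 (red) above wild type (dark) and filled points for called genes. Ltb lies farthest from 0 in each of the 3 panels, every called gene in the middle panel lies left of 0, and Ltbr, Tnfrsf14 and Cd40lg lie right of 0 in the first panel and left of it in the last.

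Ligands and receptors were then read as pairs. Tnf and both of its receptors were above background in all 8 groups. Ltb was above background in CLP and HSC and Ltbr everywhere, with its highest means of 6.00 and 6.05 in Mll-AF9 and wild-type GMP, where Ltb was at background. Tnfsf10 was above background in all groups, while Tnfrsf10b, the mouse death receptor for TRAIL, was below it in all, with means of 3.91 to 4.20. Fasl and Fas were below background in all groups, at 2.66 to 2.99 and 2.85 to 3.05. Tnfsf13b, the BAFF gene, was below background at 3.13 to 3.66, while its receptor genes Tnfrsf13b and Tnfrsf13c were above it in 8 and 4 groups and Tnfrsf17 in none. Cd40, the partner of Cd40lg, was below background at 3.85 to 4.41. Tnfsf4, the OX40 ligand, was below it at 3.82 to 4.07, while its receptor gene Tnfrsf4 was above it in all groups. Tnfsf9, the ligand of 4-1BB, stood at 3.96 to 4.61, and Tnfrsf9, which encodes 4-1BB itself, passed background in wild-type GMP alone, at 4.64. Tnfrsf11b, the decoy receptor osteoprotegerin, stood at 3.47 to 3.74. Of the remaining genes, Tnfrsf12a stood at 5.42 to 5.94 and Tnfrsf21 at 6.06 to 7.02, both lowest in CMP or CLP, and Tnfsf13os at 4.24 to 5.22. Cd70, Tnfsf8 and Tnfrsf19 were below background throughout, at 2.69 to 4.15. A level below background does not show that a gene is silent.

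Tnfsf11, which encodes RANKL, was read differently by its probe sets. The one chosen by its mean was flat, with group means of 3.62 to 3.89, all below background. The second probe set, singled out after its values were seen, ran from 2.64 over 4.89 to 6.65 in wild-type CLP, and averaged 5.01 ± 1.26 (SD, n = 8) there against 2.67 ± 0.33 (SD, n = 5) in wild-type HSC and 2.68 ± 0.19 (SD, n = 5) in wild-type GMP. All wild-type CLP replicates but replicate 8 lay above all HSC and GMP replicates of wild type. It was higher in wild-type CLP than in HSC by 2.34 ± 0.36 (limma adjusted p = 0.000146 over all 34945 probe sets of single genes). With only these 2 groups fitted, the adjusted p was 0.203. It was also higher in wild-type CLP than in GMP, by 2.33 ± 0.36 (adjusted p = 1.41e-06). In Mll-AF9 CLP it averaged 3.49 ± 0.78 (SD, n = 7), below background, and the genotype difference of −1.52 ± 0.47 was not called (adjusted p = 0.345).

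The CLP replicates were unlike each other in several of these genes. Tnfrsf25 ran from 3.88 over 4.81 to 7.40 in Mll-AF9 CLP and from 4.13 over 4.53 to 7.24 in wild-type CLP, against 3.31 to 3.83 in Mll-AF9 GMP and 3.30 to 3.96 in wild-type GMP. The highest values were in Mll-AF9 replicate 3 and wild type replicate 7, which also had the highest Il7r of their groups, 10.91 and 10.94. In Mll-AF9 replicates 5, 6 and 7, Il7r was 8.03, 7.70 and 8.50 and Tnfrsf25 was 3.88, 4.14 and 4.71, while in replicates 1 to 4 Il7r was 10.17 to 10.91 and Tnfrsf25 4.81 to 7.40. Lta was 4.21 to 4.84 in those 4 replicates and 3.57 to 3.91 in the other 3. In wild type, replicates 4, 6 and 7 had Il7r of 10.21 to 10.94 and Tnfrsf25 of 5.53 to 7.24. The other wild-type replicates had Il7r of 7.16 to 9.99 and Tnfrsf25 of 4.13 to 4.55. Among these the lowest Il7r, in replicate 8, went with 4.52, and the lowest Tnfrsf25, in replicate 3, with Il7r of 9.76. The wild-type sets lay close in Il7r at their divide, with 9.99 in replicate 5 and 10.21 in replicate 6. Il7r thus does not part the wild-type replicates into clear classes. Wild-type Lta overlapped, at 3.93 to 4.64 in replicates 4, 6 and 7 and 3.57 to 4.13 in the others. The mast cell and basophil markers moved in part with these levels. Of 4 markers measured, 4 were above background in both CLP groups. Their summed level ran from 8.77 to 12.24 in Mll-AF9 CLP and from 10.09 to 14.22 in wild-type CLP. It was highest in Mll-AF9 replicate 3 and wild type replicate 7. The highest summed T and NK cell level of the wild-type CLP was in replicate 7 too, at 9.61, while Mll-AF9 replicate 3 had 9.06. Their part in the levels of Tnfrsf25 was not tested.

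**Figure D4:**
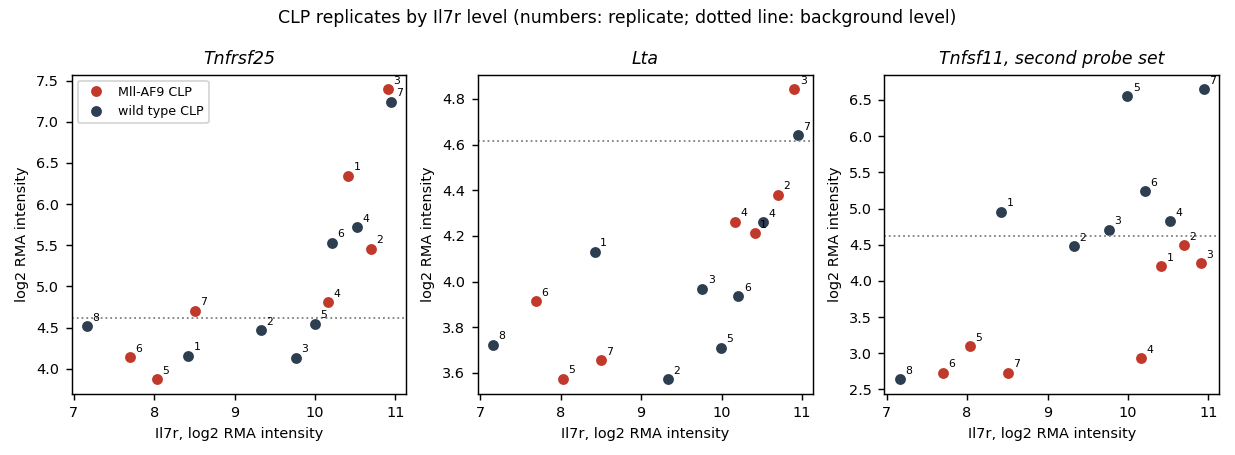
Levels of Tnfrsf25, Lta and the second Tnfsf11 probe set (vertical axes, log2 RMA intensity) against Il7r (horizontal axis, same unit) in 7 Mll-AF9 (red) and 8 wild-type (dark) CLP replicates, numbered by replicate. The dotted line is the background of 4.61. Mll-AF9 replicate 3 and wild type replicate 7 have the highest Tnfrsf25, at 7.40 and 7.24.

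The stated question of the study was then put to the family. limma called 0 of the 36 genes between Mll-AF9 and wild type within each of GMP, CMP, CLP and HSC, where it called 0.264%, 0.418%, 0.346% and 0.0495% of all genes. At an unadjusted p under 0.05 there were 1, 1, 0 and 1 genes, where 9.63%, 6.75%, 9.29% and 6.38% of all genes passed. The median difference of the 36 genes was −0.06 for GMP, 0.03 for CMP, 0.13 for CLP and −0.01 for HSC, and over all genes −0.02, 0.002, 0.06 and 0.01. No absolute difference exceeded 0.41 among GMP, 0.39 among CMP, 0.51 among CLP and 0.64 among HSC. The 95% interval stayed within 1 log2 unit of 0 for all 36 genes in GMP and CMP and for 33 in CLP and in HSC.

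Tnfsf10 read 4.94, 4.82, 4.69 and 4.76 in Mll-AF9 GMP and 5.39, 5.44, 5.06, 5.13 and 4.95 in wild-type GMP. The groups just fail to overlap, and the difference was −0.39 with a 95% interval of −0.72 to −0.06 (limma adjusted p = 0.428). Tnfrsf13c followed with −0.41 ± 0.21 (adjusted p = 0.563) and Tnfrsf22 with −0.26 ± 0.15 (adjusted p = 0.609). In CMP, Tnfsf13os had the smallest p (−0.39 ± 0.13, adjusted p = 0.449), then Ltb (0.29 ± 0.16, adjusted p = 0.818) and Lta (0.18 ± 0.11, adjusted p = 0.861).

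In CLP the smallest p was that of Tnfrsf13c, which ran from 4.70 over 6.01 to 6.15 in Mll-AF9 and from 5.52 over 6.11 to 6.59 in wild type. Its difference was −0.51 with an interval of −1.03 to 0.02 (adjusted p = 0.558), and Tnfrsf14 (−0.25 ± 0.14, adjusted p = 0.619) and Fasl (0.17 ± 0.10, adjusted p = 0.627) came next. Intervals that reached beyond 1 unit were those of Ltb (−0.22 to 1.18), Tnfrsf13c and Tnfrsf25 (−0.85 to 1.27). In HSC, Tnfrsf17 read 3.93, 3.38, 3.38, 3.54 and 3.37 in Mll-AF9 and 4.27, 4.47, 4.25, 4.08 and 3.77 in wild type, all below background. Its difference was −0.64 ± 0.18 (adjusted p = 0.347), followed by Cd40lg (0.38 ± 0.19, adjusted p = 0.779) and Tnfsf13b (−0.38 ± 0.19, adjusted p = 0.779). Intervals beyond 1 unit were those of Ltbr (−1.01 to 0.20), Tnfrsf13b (−0.49 to 1.37) and Tnfrsf17 (−1.02 to −0.27).

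The genotype effect was also compared between populations in 6 pairs. limma called 0 of the 36 genes in any pair. Over all genes it called 0% for GMP against CMP, 0.0660% for GMP against CLP, 0.0440% for GMP against HSC, 0.0660% for CMP against CLP, 0% for CMP against HSC and 0.143% for CLP against HSC. At an unadjusted p under 0.05 there were 0, 2, 0, 0, 1 and 2 of the 36 genes, and 1.84%, 10.1%, 7.88%, 4.21%, 2.91% and 9.60% of all genes. The smallest adjusted p was that of Tnfsf13b between CLP and HSC (0.68 ± 0.25, adjusted p = 0.379), a gene below background in all 4 groups.

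**Figure D5:**
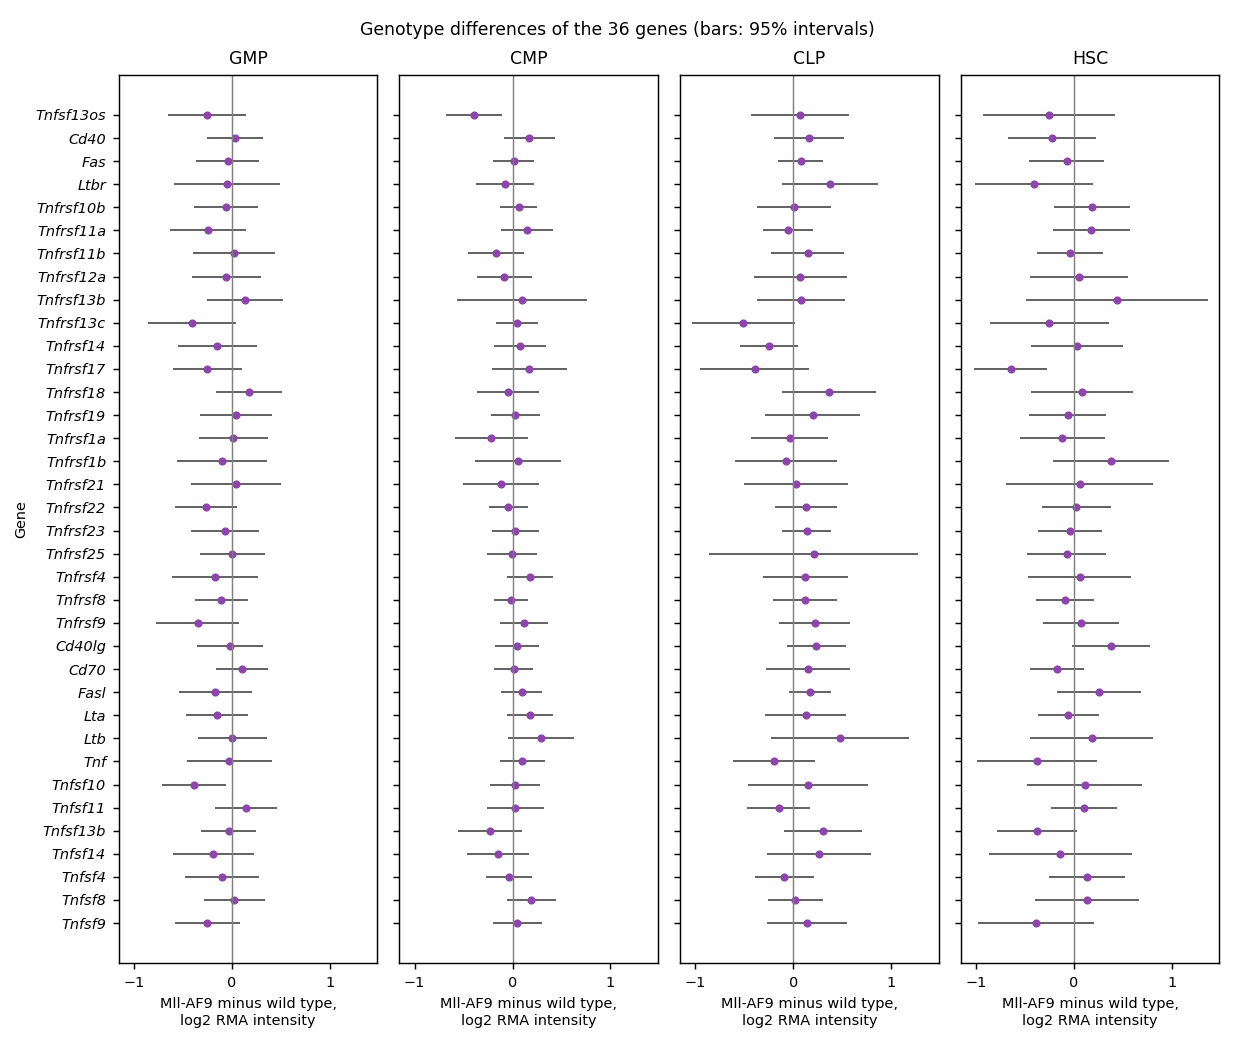
Differences Mll-AF9 minus wild type (horizontal axis, log2 RMA intensity, with 95% intervals) of the 36 genes in each population. No difference was called, and the points lie within 0.64 of 0.

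Signalling genes behind the receptors were described as lists of 19 measured adaptors and ubiquitin ligases, 8 death effectors and 12 NF-kappa B subunits and inhibitors. Between genotypes 1 of these genes was called, in GMP, where 0.264% of all genes were. Nfkbiz, an inhibitor protein that also activates some NF-kappa B targets, was higher in Mll-AF9 GMP, at 8.85 ± 0.25 (SD, n = 4) against 7.82 ± 0.26 (SD, n = 5) in wild-type GMP, a difference of 1.02 ± 0.18 (adjusted p = 0.0277). Alternatives were followed for the family only, not for Nfkbiz. With the Y-linked covariate 20 of all genes were called in GMP, in place of 48. The part of sex in the level of Nfkbiz was not tested. The median difference in GMP was 0.15 over the NF-kappa B list, 0.14 over the adaptors and 0.12 over the death effectors, against −0.02 over all genes. In the same order it was 0.20, 0.07 and 0.13 in CLP, against 0.06 over all genes. It was 0.01, 0.03 and −0.03 in CMP (all genes 0.002) and −0.05, 0.13 and 0.07 in HSC (all genes 0.01). No listed gene was called for a difference of the genotype effect between populations.

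Between populations these lists moved in both directions. In GMP against HSC, 3 death effectors were higher and 2 lower in Mll-AF9, and 3 and 2 in wild type, where 32.8% and 38.1% of all genes were called. Bid, which links death receptors to mitochondria, was higher by 2.62 ± 0.34 in Mll-AF9 (adjusted p = 4.08e-08) and by 2.69 ± 0.32 in wild type (adjusted p = 5.78e-09). Cflar, which encodes the caspase-8 inhibitor FLIP, fell by 1.32 ± 0.24 (adjusted p = 2.31e-05) and 1.61 ± 0.22 (adjusted p = 1.77e-07). Among adaptors 2 were higher and 1 lower in Mll-AF9, and 3 and 2 in wild type, with the death domain adaptor Fadd up by 0.97 and 1.10 and the TRAF-binding Tank up by 1.79 and 0.92. Of the NF-kappa B list 2 were higher and 1 lower in Mll-AF9, and 2 and 4 in wild type, and Relb, the subunit that acts downstream of the lymphotoxin receptor, was lower by at least 1.09-fold in Mll-AF9 (adjusted p = 0.00148). In wild type Relb was called too (adjusted p = 0.000747), with both groups below background, at 3.35 in GMP and 4.50 in HSC. The lowest wild-type difference of this list was −1.99, in a gene other than Relb.

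In CMP against HSC, where 20.9% of all genes were called in Mll-AF9 and 22.4% in wild type, 1 death effector was higher and 3 lower in Mll-AF9, and 3 and 2 in wild type, where Casp8, the initiator caspase of death receptors, fell by 1.10 ± 0.29 (adjusted p = 0.00348) and 1.07 ± 0.27 (adjusted p = 0.00245). Of the NF-kappa B list 1 was higher and 3 lower in Mll-AF9, and 1 and 5 in wild type, with Bcl3 lower by at least 1.83-fold in Mll-AF9 (adjusted p = 0.000147) and at least 1.70-fold in wild type (adjusted p = 5.87e-06). Among adaptors 2 were higher and 2 lower in Mll-AF9, and 3 and 2 in wild type, with Birc3, a ubiquitin ligase bound to TRAF proteins, lower by 1.40 and 1.16. In CLP against HSC, where 3.73% and 0.319% of all genes were called, 1 adaptor, Tank, was higher in Mll-AF9 (0.64 ± 0.18, adjusted p = 0.0332). In wild type limma called 0 of the listed genes, with 5 at an unadjusted p under 0.05, where 9.58% of all genes passed.

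In CLP against GMP, 1 adaptor was higher and 3 lower in Mll-AF9, and 7 and 4 in wild type, where 30.1% and 43.0% of all genes were called. Traf1, an adaptor of TNF receptors, was higher by 1.79 ± 0.48 in Mll-AF9 (adjusted p = 0.00345, at least 2.51-fold) and by 1.28 ± 0.43 in wild type (adjusted p = 0.015, at least 1.71-fold), and Tnfaip3, the inhibitor A20, by 1.99 ± 0.52 in wild type (adjusted p = 0.0021). Of the NF-kappa B list 2 were higher and 1 lower in Mll-AF9, and 4 and 2 in wild type. Relb averaged 5.39 in Mll-AF9 CLP and 3.58 in Mll-AF9 GMP (1.81 ± 0.27, adjusted p = 9.17e-07, at least 1.72-fold), and 4.56 and 3.35 in wild-type CLP and GMP, both below background. The largest wild-type difference of this list was 3.04, in a gene other than Relb. Death effectors were higher in 1 and lower in 2 cases in Mll-AF9, and in 2 and 3 in wild type, with Bid lower by 2.48 ± 0.31 (adjusted p = 3.77e-08) and 2.28 ± 0.28 (adjusted p = 1.8e-08) in CLP.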

How the data were processed

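The authors deposited 1 RMA intensity per probe set and array on a linear scale, per the submitters' processing notes and the values. The sources used here give neither its version nor whether the 51 arrays were normalised jointly. The number of arrays limits precision. log2 was taken, and repeat runs were averaged for 8 CMP replicates, which left 43 replicates. Of 45101 probe sets, 64 controls and 10092 with several genes or none were left out. Each gene kept its brightest probe set, for 18193 genes and 36 family members, 16 of them with more than 1 probe set.

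Genotypes were compared within populations, and populations and differences of effect as contrasts in 1 model of 8 groups, with limma 3.58.1 in R 4.3.3 (eBayes with trend, Benjamini-Hochberg adjustment). A p-value here reflects only how far these samples differ among themselves, which may be technical. The steps were tested on simulated data. The members and lists were chosen with earlier results of these data known. Genes named were every called genotype difference, the 3 smallest p per population, the largest called population differences, the ligand and receptor pairs and up to 4 called list members. Samples were not treated as paired by replicate number, because no comparison had every pair's correlation of deviations over 0.1. That rule cannot exclude pairing, and the 5 pairs of wild-type GMP and HSC had correlations of 0.04 to 0.16. The highest correlation between replicates was 0.993. Alternatives are in the closing section.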

Additional observations from a re-analysis of the deposited data

Results flagged for a closer look

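In 107 tests of a gene within a group of 4 to 10 replicates, Dixon's test flagged 2 replicates. That is fewer than chance gives, which is about 1 in 20. Neither passed after adjustment (Dixon's test, q = 0.545 for Tnfrsf13b and 0.898 for Tnfrsf14). Tnfrsf13b was 6.01 in wild type CLP replicate 7, with the nearest replicate at 6.48 and the highest at 6.87. Tnfrsf14 was 4.45 in Mll-AF9 GMP replicate 2, with the other 3 replicates at 4.98 to 5.04.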

How the results depend on the processing

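With the probe set chosen for each gene, no called difference of the family reversed under the alternatives run for it. A second Tnfrsf1b probe set had the other sign in CMP minus HSC (0.04 in Mll-AF9 and 0.16 in wild type, not called), and another Tnfsf10 probe set in GMP minus HSC (0.38 and 0.37, not called). The genotype comparisons and the differences of effect kept 0 calls under the replicate block, no trend, quantile and median scaling, the mean of all probe sets, the Y-linked and RNA quality covariates and leaving out each replicate, and the genotype comparisons also under the filter on dim probe sets, which was not run for the differences of effect. The replicate block gave 10 calls for GMP minus HSC in Mll-AF9 (11 in the main analysis), 5 for CLP minus HSC in Mll-AF9 (3 in the main analysis) and 16 for CLP minus GMP in wild type (17), and pairing by replicate number was not shown. For GMP minus HSC in Mll-AF9 the dim filter and a fit of only the 2 groups each gave 7 calls, and leaving out 1 replicate gave 6 to 9, with 6 without Mll-AF9 GMP replicate 3. For CLP minus HSC in Mll-AF9 the count was 0 with the RNA quality covariate, 0 with only the 2 groups and 1 with the dim filter, and 0 to 4 with 1 replicate left out. For CLP minus HSC in wild type the mean of all probe sets gave 1 call, Tnfsf11 (1.25 ± 0.22, limma adjusted p = 0.00146). With 1 replicate left out the other counts were 9 to 12 for GMP minus HSC in wild type, 8 to 10 and 9 to 10 for CMP minus HSC and 8 to 12 and 14 to 19 for CLP minus GMP, in Mll-AF9 and wild type. Over all genes, leaving out 1 replicate gave 20 to 139 calls between genotypes in GMP (48 with all), 58 to 118 in CMP (76), 36 to 68 in CLP (63) and 2 to 13 in HSC (9). The lowest were without Mll-AF9 GMP replicate 3, wild type CMP replicate 1, wild type CLP replicate 2 and Mll-AF9 HSC replicate 3 or 4, and the highest without wild type GMP replicate 1, Mll-AF9 CMP replicate 3, wild type CLP replicate 7 and wild type HSC replicate 5. One model of all groups gave 26, 9, 271 and 75, the Y-linked covariate 20, 37, 1 and 4, and the block 16 in GMP and 14 in HSC. Further, GMP had 29 with the mean of all probe sets, CMP 43 with the second run only and 187 with every run and a random effect of the replicate, CLP 19 with the RNA quality covariate and HSC 3 without trend. CLP minus HSC in Mll-AF9 (679) gave 1021 with the block and 338 to 1302 without Mll-AF9 HSC replicate 3 or 5, and in wild type (58) 203 with the block, 7 with only the 2 groups and 34 to 113 with 1 replicate left out. The differences of effect (58) gave 255 with the block and 37 to 110 without Mll-AF9 HSC replicate 3 or 5. The causes were not tested. Ltb, Tnfrsf13c, Tnfsf10, Tnfrsf18, Tnfrsf1b, Tnfsf14, Ltbr and Tnfrsf14 kept each of their calls in the alternatives run with the chosen probe set or the mean of all. Signal over background limits the 16 genes below it in every group, and the CMP comparisons depend on arrays that may have been processed apart. The second Tnfsf11 probe set, an alternative chosen after seeing the data, kept its call over HSC without any 1 replicate, with differences of 2.10 to 2.68, and lost it when only the 2 groups were fitted.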
